A study of Mus musculus with 3 samples.

Results

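A set of 10 genes of bone morphogenetic protein (BMP) signaling were followed through the single-cell data: the ligands *Bmp2*, *Bmp4* and *Bmp7*, the type I receptor *Bmpr1a*, the antagonists *Nog*, *Grem1* and *Chrd*, and the target genes *Id1*, *Id2* and *Id3*. They were taken by symbol, 10 of the 27755 genes listed for the D10 culture and for the E14.5 tail and 10 of the 25936 listed for D6 PM, and each had UMIs in all 3 libraries. D6 PM is a whole culture of mouse embryonic stem cells (mESCs) carrying the ScxGFP reporter. The BMP receptor inhibitor LDN-193189 was present at 500 nM from the start, and 5 µM CHIR, an agonist of WNT signaling, was added from D2. The mESCs had been maintained on feeder layers of mouse embryonic fibroblasts. The D10 culture had then spent 4 days without LDN-193189 and CHIR, in 10 ng/mL TGFβ1, 100 nM SAG (an agonist of hedgehog signaling) and 10 ng/mL FGF2. The E14.5 tail is dissociated tail tissue of mouse embryos from dams carrying ScxGFP. Each group is 1 library, so that no test between groups was possible, and the removal of the BMP receptor inhibitor between D6 and D10 cannot be told apart from age, the new medium or the library.

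A level is given as CPM, the number of unique molecular identifiers (UMIs) that a gene had in all cells of a cluster, scaled to the UMIs of all genes in those cells. Parentheses hold exact 95% intervals, which were computed from the Poisson distribution for levels, from the conditional binomial distribution for ratios and by the Clopper-Pearson method for shares. They describe counting error and no variation between cultures or embryos. The libraries held 7821 culture cells with a median of 5622 UMIs, 2052 tail cells with 13512 and 5954 D6 PM cells with 8171, and shared 3 to 10 cell barcodes in pairs. Clusters are the deposited ones. For culture and tail they are numbered by their marker genes, after the cell types that the text of the study names. Its numbering is not uniform, since its list of cluster sizes has other numbers for clusters 2, 3, 4 and 8, and the sizes in its text for clusters 2 and 4 follow that list. For D6 PM the 4 with most cells are numbered here from 0 by size. In culture and tail, cluster 0 was tendon-like and cluster 1 proliferating and tendon-like. Cluster 2 was fibrocartilage-like in the culture and cartilage-like in the tail, while culture cluster 4 was pluripotent-like. In D6 PM, cluster 0 was endoderm-like, cluster 1 pluripotent-like, cluster 2 a cycling cluster with endoderm genes and cluster 3 somite-like, with 700 cells in which all 8 paraxial mesoderm markers had UMIs and *Tbx6* and *Mesp2* were near 0, followed by a fibroblast-like cluster and a small endothelial-like cluster that is also led by haemoglobin genes. The clusters were made from the same cells and genes, so that differences between clusters of 1 library are descriptions.

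BMP ligands are secreted as dimers that bring type I and type II receptors together, and the receptors then phosphorylate Smad proteins that enter the nucleus with Smad4. Noggin, gremlin and chordin bind the ligands outside the cell and keep them from the receptors. The Id genes are well-known direct targets of this pathway, and Id proteins hold basic helix-loop-helix transcription factors, the class to which *Scx* belongs, away from DNA. In the embryo, BMP signals act on the lateral parts of the somites, while noggin and gremlin protect the sclerotome, and cartilage formation later depends on BMP.

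RefSeq promoter sequences were at hand for 6 of the 10 genes: *Bmp4*, *Bmpr1a*, *Chrd*, *Grem1*, *Id2* and *Id3*. The Id genes were chosen as direct targets, and *Bmp4* as the member ligand with the highest level in tendon-like cluster 0 of culture and tail. *Grem1* was chosen as the member most restricted to a single cluster in the cultures. Sequences are shown for *Id2*, *Id3*, *Bmp4* and *Grem1*. Each is the 250 bases before the annotated start site in GRCm38.p6, 5′ to 3′ on the strand of the gene, and capitals mark GGCGCC and CAGAC on either strand (GTCTG is CAGAC on the other strand), short elements that Smad proteins are known to bind.

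*Id2*, chr12:25096093-25096342, minus strand: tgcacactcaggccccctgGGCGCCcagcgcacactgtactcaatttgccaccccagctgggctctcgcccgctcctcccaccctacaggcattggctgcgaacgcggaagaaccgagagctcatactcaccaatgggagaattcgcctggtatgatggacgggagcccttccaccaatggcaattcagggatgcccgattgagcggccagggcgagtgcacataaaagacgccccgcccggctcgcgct

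*Id3*, chr4:136143572-136143821, plus strand: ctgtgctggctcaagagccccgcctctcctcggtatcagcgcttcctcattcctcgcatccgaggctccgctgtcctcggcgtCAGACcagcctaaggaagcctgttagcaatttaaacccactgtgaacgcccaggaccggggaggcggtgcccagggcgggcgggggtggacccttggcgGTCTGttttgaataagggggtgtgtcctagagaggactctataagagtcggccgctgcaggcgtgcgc

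*Bmp4*, chr14:46390670-46390919, minus strand: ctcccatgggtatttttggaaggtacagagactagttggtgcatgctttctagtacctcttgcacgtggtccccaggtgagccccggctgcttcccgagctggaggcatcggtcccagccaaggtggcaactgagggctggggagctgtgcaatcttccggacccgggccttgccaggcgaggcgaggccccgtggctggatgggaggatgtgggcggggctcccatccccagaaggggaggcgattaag

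*Grem1*, chr2:113758649-113758898, minus strand: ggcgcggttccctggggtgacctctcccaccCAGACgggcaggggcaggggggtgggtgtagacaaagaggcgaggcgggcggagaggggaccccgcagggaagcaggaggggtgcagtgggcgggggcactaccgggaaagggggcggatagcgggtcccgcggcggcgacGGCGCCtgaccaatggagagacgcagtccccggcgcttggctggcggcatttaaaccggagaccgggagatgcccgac

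*Id2* held 1 GGCGCC, which began 231 bases before the start site, and *Id3* held 2 copies of CAGAC, 167 and 68 bases before it. *Grem1* held 1 of each, and *Bmp4* held neither. Among 32536 promoters of this length, 9.65% held GGCGCC and 42.2% held CAGAC, so that CAGAC alone is common. The counts of this dataset do not measure binding, and these matches are a description of the sequence.

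*Bmp4*, a ligand of limb, heart and lateral mesoderm, was highest in the somite-like cluster of D6 PM and in clusters 0, 1 and 2 of culture and tail. It was at 5.43 CPM (32 UMIs) in the D6 fibroblast-like cluster and at 2.28 CPM (1 UMI) in culture cluster 3. In D6 PM it stood at 117 CPM (109 to 126) in the somite-like cluster, which held 65.7% of its UMIs with 11.7% of all UMIs. The other D6 clusters lay between 2.46 CPM in the pluripotent-like cluster and 11.9 CPM in cluster 0. In the culture, *Bmp4* was at 108 CPM (103 to 113) in cluster 0, 89.8 in cluster 1 and 81.8 in cluster 2, and these clusters held 57.5%, 30.8% and 8.7% of its UMIs. It was at 1.79 CPM (21 UMIs) in the pluripotent-like cluster 4 and at 3.14 CPM in cluster 8. The tail also had its highest level in cluster 0, with 65.7 CPM (60.8 to 70.9) in cluster 0, 50.2 in cluster 2 and 49.0 in cluster 1. Clusters 1 and 2 did not differ beyond counting error in the culture or in the tail. In tail cluster 3, which is unnamed, led by mast cell and macrophage genes (*Cpa3*, *Cma1*, *Lyz2*, *C1qb*) and also had high fibroblast genes, *Bmp4* was at 8.22 CPM (20 UMIs), 0.125 times (0.0760 to 0.195) the level of cluster 0.

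*Bmp2*, a ligand of heart, cartilage and bone, had another distribution. In D6 PM it was highest in cluster 2 at 180 CPM (170 to 190) and in cluster 0 at 156 CPM (150 to 162), and these endoderm-like cells held 29.3% and 60.3% of its UMIs. The endothelial-like and the fibroblast-like cluster followed at 36.9 and 35.3 CPM, the somite-like cluster at 24.0 CPM and the pluripotent-like cluster at 5.34 CPM. In the culture, *Bmp2* was highest in the 155 cells of cluster 7, which is unnamed and led by endoderm genes (*Rbp4*, *Afp*, *Ttr*) and keratins, at 92.7 CPM (75.0 to 113). It was between 7.10 and 8.12 CPM in clusters 0, 1 and 2, which did not differ beyond counting error, and at 0.256 CPM (3 UMIs) in cluster 4. The tail had 62.5 CPM (53.0 to 73.3) in cluster 3, 61.4 in cluster 2, 42.4 in cluster 0 and 35.8 in cluster 1. Among tail clusters of at least 50 cells, erythroid-like cluster 11 at 0.942 CPM (1 UMI) and nerve-like cluster 9 at 1.78 CPM (3 UMIs) were lowest. The other erythroid-like cluster, 5, had 10.8 CPM (11 UMIs).

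*Bmp7*, a ligand of kidney, eye and skin appendages, was spread over more clusters. Its highest D6 level was again in the somite-like cluster, at 79.6 CPM (72.7 to 87.0), while clusters 0, 1 and 2 lay between 22.9 and 28.2 CPM and the fibroblast-like cluster was at 2.54 CPM (15 UMIs). In the culture it was highest in cluster 2, at 52.3 CPM (44.8 to 60.7). Cluster 1 followed at 26.7 CPM and cluster 0 at 15.3 CPM, close to the 17.6 CPM of the pluripotent-like cluster. The tail level was highest in the keratinocyte-like clusters, at 118 CPM in the 49 cells of cluster 4 and 87.8 CPM (74.4 to 103) in the 82 cells of cluster 7. The leading genes of cluster 4 were *S100a9* and *S100a8*, and also held *Stfa1*, *Krt14* and *Krt15*. Tail clusters 2, 1 and 0 stood at 44.4, 31.2 and 29.0 CPM, and muscle-like cluster 8 at 30.9 CPM.

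**Figure D1:**
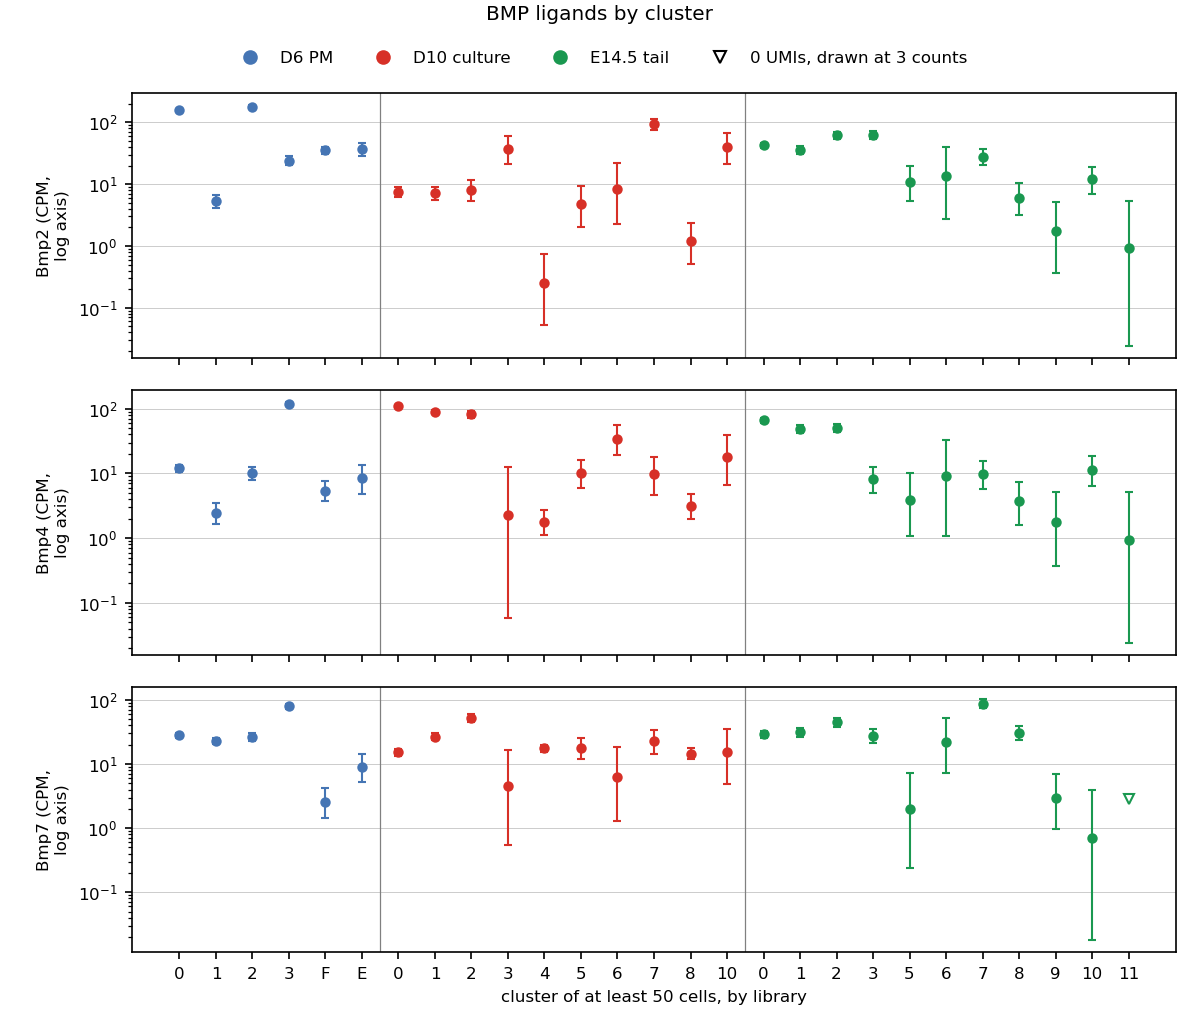
Levels of *Bmp2*, *Bmp4* and *Bmp7* in CPM (log axis) for each cluster of at least 50 cells of D6 PM, the D10 culture and the E14.5 tail, with points for levels, bars for exact Poisson 95% intervals and open triangles for clusters with 0 UMIs, drawn at 3 counts; F and E are the fibroblast-like and endothelial-like D6 clusters. *Bmp4* is highest in D6 cluster 3 (117 CPM) and in clusters 0, 1 and 2 of culture and tail, while *Bmp2* is highest in D6 clusters 0 and 2.

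Among the 5 most abundant other ligands, *Bmp5* had 49.0 CPM over the whole culture, 10.6 in D6 PM and 16.2 in the tail, and *Gdf10* had 16.0, 0.386 and 47.5 CPM. *Gdf11* was at 8.71, 5.36 and 26.1 CPM, and *Bmp3* and *Bmp6* were under 10 CPM in all 3 libraries. *Bmp5* and *Bmp3* shared the D6 somite-like cluster with *Bmp4*, at 83.4 CPM and 76.2 CPM against 0.411 (5 UMIs) and 0.657 CPM (8 UMIs) in the pluripotent-like cluster.

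*Bmpr1a*, the type I receptor for *Bmp2* and *Bmp4*, had the smallest fold range of the members across the D6 PM clusters. Across the 6 D6 clusters it ran from 46.1 CPM (42.4 to 50.1) in the pluripotent-like cluster to 63.3 CPM (57.2 to 70.0) in the somite-like cluster. In culture clusters 0, 1 and 2 it was at 77.0, 93.3 and 89.6 CPM, and in the pluripotent-like cluster at 34.4 CPM (31.1 to 37.9). The same clusters 0, 1 and 2 of the tail stood at 120, 125 and 120 CPM and did not differ beyond counting error. Tail endothelial-like cluster 10 had 2.12 CPM (3 UMIs) and erythroid-like cluster 11 had 0.942 CPM (1 UMI), while the 58 endothelial-like cells of the culture had 0 UMIs, which allows up to 9.10 CPM (3 counts). Of the other receptors, *Bmpr2*, the main type II receptor, had 88.6 CPM in the culture, 60.3 in D6 PM and 97.3 in the tail, and *Acvr2b* had 49.4, 82.9 and 42.6 CPM.

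*Grem1* had a larger share of its UMIs in a single cluster than any other member in both cultures. In D6 PM, 97.4% of its UMIs came from the 662 fibroblast-like cells, at 446 CPM (429 to 463). The somite-like cluster had 6.42 CPM (39 UMIs), and no other D6 cluster was above 1.40 CPM. In the culture, 76.3% of its UMIs came from the 53 cells of cluster 3, at 241 CPM (198 to 292), while clusters 0, 1 and 2 had 10, 12 and 5 UMIs. Both clusters with high *Grem1* also had macrophage genes: the summed level of the 5 macrophage and white blood cell markers was 157 CPM in the D6 fibroblast-like cluster, with all 5 detected, and 916 CPM in culture cluster 3, with *C1qb* at 0, against 0 to 2.8 CPM in D6 clusters 0 to 3 and in culture clusters 0, 1, 2, 4 and 8. The sums of the 5 fibroblast markers were 4877 and 3483 CPM there, and 5099 CPM in culture cluster 0, where *Grem1* was near 0. Their part in the level of *Grem1* was not tested. The tail had no such high cluster: *Grem1* was at 26.3 CPM (20.3 to 33.6) in cluster 3, 20.3 in cluster 2, 15.2 in cluster 1 and 13.6 in cluster 0, and between 0 and 2.37 CPM (0 to 4 UMIs) in its other clusters of at least 50 cells. Tail cluster 3 had all 5 macrophage and white blood cell markers, at a summed 1730 CPM, against 0.6 to 2.4 CPM in clusters 0, 1 and 2.

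*Nog*, which encodes noggin, was rare in both cultures and present in tail mesenchyme. In the tail it was at 66.8 CPM (58.3 to 76.2) in the cartilage-like cluster 2, which held 38.2% of its UMIs. Muscle-like cluster 8 followed at 40.2 CPM (32.2 to 49.5), then cluster 1 at 22.2 CPM and cluster 0 at 12.8 CPM, each apart from the next beyond counting error. The erythroid-like cluster 11 gave a background of 1.88 CPM (2 UMIs). In the culture, clusters 2, 0 and 1 had 3.31, 1.08 and 0.840 CPM (11, 18 and 9 UMIs), and the highest level was 87.5 CPM (61.3 to 121) in the 43 cells of the unnamed cluster 12, which held 33.3% of all *Nog* UMIs of the library. The leading genes of cluster 12 were *Srgn*, *Tinagl1*, *Lama1*, *Amn*, *Aqp8* and *Cubn*. D6 PM had at most 5.72 CPM (104 UMIs), in cluster 0, and its somite-like cluster had 0.165 CPM (1 UMI of *Nog* in 700 cells).

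*Chrd*, which encodes chordin, was highest in the D6 endoderm-like cluster 0, at 35.6 CPM (32.9 to 38.5), followed by cluster 2 at 26.6 CPM and the somite-like cluster at 20.2 CPM. In the culture, clusters 0, 1 and 2 lay between 6.63 and 7.82 CPM and did not differ beyond counting error. Tail clusters 2, 0 and 1 had 21.5, 14.6 and 9.47 CPM, and tail cluster 3 had 2.06 CPM (5 UMIs). The 5 most abundant other antagonists and extracellular modulators were *Fstl1*, *Htra1*, *Fst*, *Bmp1* and *Twsg1*. *Fstl1*, which encodes a follistatin-like glycoprotein, had 758 CPM over the culture, 228 in D6 PM and 599 in the tail, and *Fst*, which encodes the activin binding protein follistatin, had 92.8, 54.0 and 76.8 CPM.

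**Figure D2:**
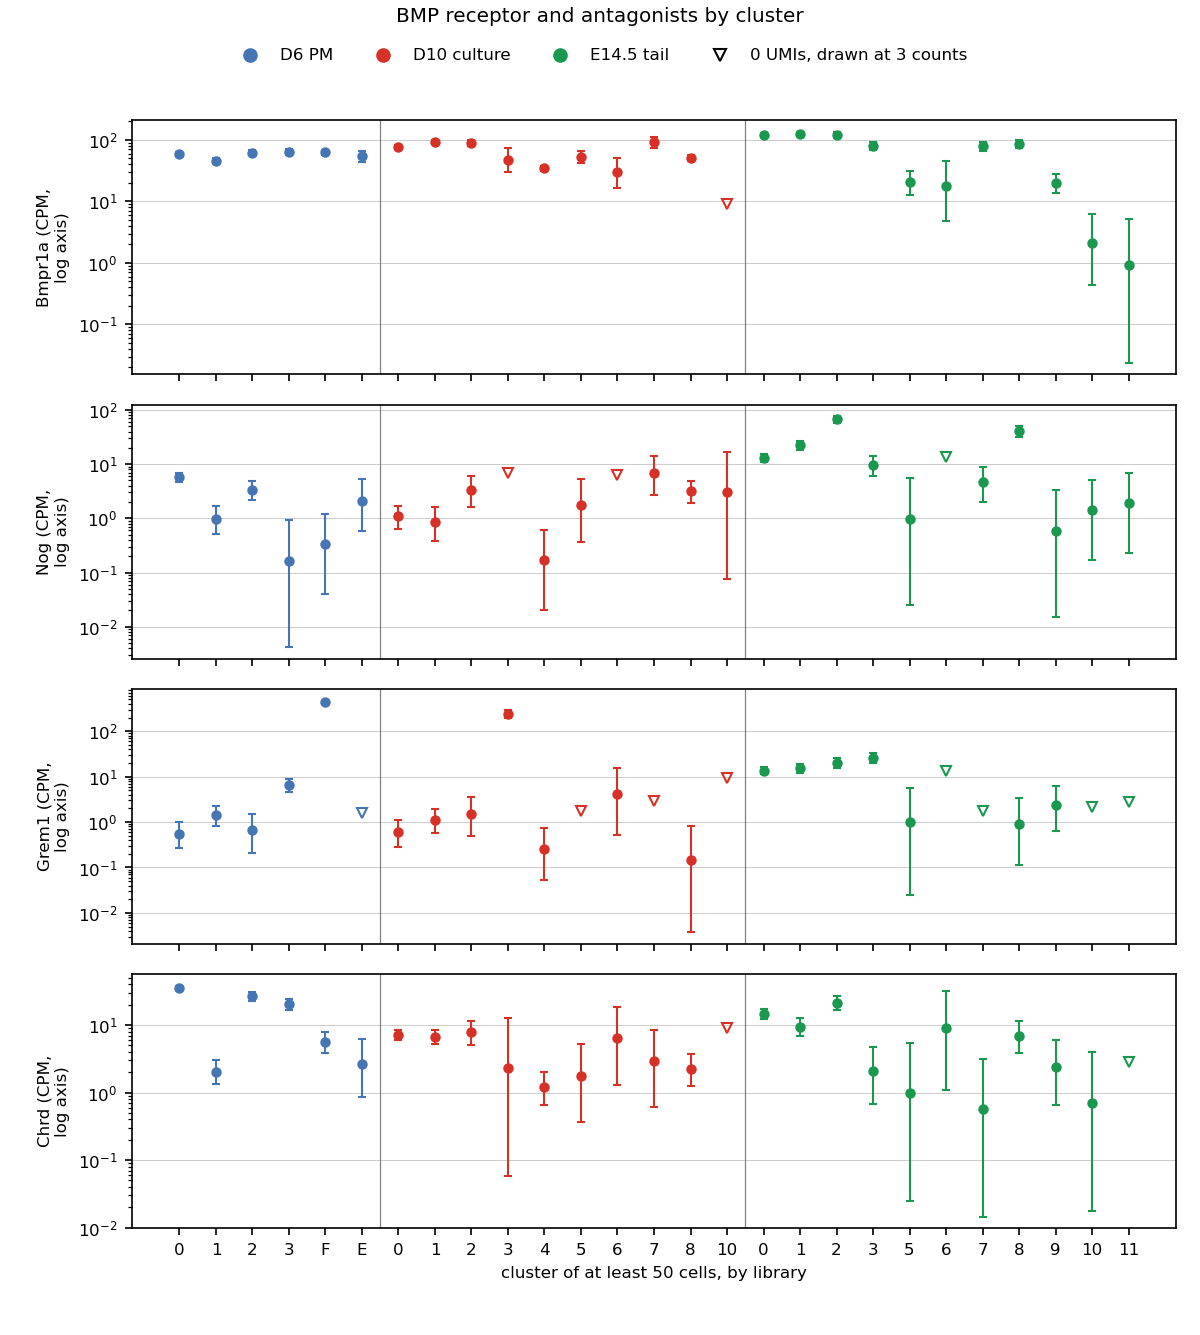
Levels of *Bmpr1a*, *Nog*, *Grem1* and *Chrd* in CPM (log axis) for each cluster of at least 50 cells of D6 PM, the D10 culture and the E14.5 tail, with points for levels, bars for exact Poisson 95% intervals and open triangles for clusters with 0 UMIs, drawn at 3 counts; F and E are the fibroblast-like and endothelial-like D6 clusters. *Grem1* stands at 446 CPM in D6 cluster F and 241 CPM in culture cluster 3, and *Nog* at 66.8 CPM in tail cluster 2.

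*Id1* was lowest in the pluripotent-like cluster of both cultures and highest in cluster 2 of culture and tail. In D6 PM it was at 10.2 CPM (8.47 to 12.1) in the pluripotent-like cluster, 40.2 in cluster 0, 58.0 in cluster 2, 61.2 (55.1 to 67.7) in the somite-like cluster and 83.4 (76.2 to 91.1) in the fibroblast-like cluster. In the culture it was at 10.7 CPM (8.95 to 12.8) in the pluripotent-like cluster 4. Cluster 0 had 119 CPM (113 to 124), cluster 1 had 175 CPM (167 to 183) and cluster 2 had 339 CPM (319 to 359). The 58 cells of endothelial-like cluster 10 had 203 CPM (157 to 258), which did not differ beyond counting error from cluster 1. All 3 of these clusters were higher in the tail: cluster 0 had 357 CPM (345 to 369), cluster 1 had 401 CPM (383 to 420) and cluster 2 had 778 CPM (748 to 809). At the low end were nerve-like cluster 9 at 5.33 CPM (9 UMIs) and erythroid-like cluster 11 at 3.77 CPM (4 UMIs).

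*Id3* differed from *Id1* in its order of clusters in D6 PM. It was highest there in the endoderm-like clusters, at 255 CPM (244 to 267) in cluster 2 and 246 CPM (239 to 254) in cluster 0, with 124 CPM (115 to 133) in the somite-like cluster and 48.7 in the pluripotent-like cluster. The D6 fibroblast-like cluster, highest for *Id1*, was lowest for *Id3* at 16.8 CPM (13.6 to 20.4). In culture clusters 0, 1 and 2 *Id3* was at 391, 383 and 435 CPM, and at 23.4 CPM (20.8 to 26.4) in cluster 4. Tail cluster 2 had 1143 CPM, followed by endothelial-like cluster 10 at 830 CPM (783 to 879), cluster 1 at 782 and cluster 0 at 660 CPM, and the 38 glia-like cells of cluster 13 had 1213 CPM.

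*Id2* differed from *Id1* and *Id3* in its order of clusters. It was lower in cluster 2 than in cluster 0 in both libraries, at 91.7 against 125 CPM in the culture and 174 against 223 CPM in the tail. Its highest culture level was in cluster 7, with its endoderm and keratin genes, at 190 CPM (164 to 219), and endothelial-like cluster 10 had 0 UMIs, which allows up to 9.10 CPM (3 counts). In the tail it reached 462 CPM in the 38 glia-like cells and 252 CPM (233 to 273) in cluster 3. D6 levels ran from 6.33 CPM (12 UMIs) in the endothelial-like cluster over 29.1 CPM in the pluripotent-like cluster to 74.3 CPM (67.5 to 81.6) in the fibroblast-like cluster. Across the 27 clusters of at least 50 cells, the Pearson r of log2(CPM + 10) was 0.88 between *Id1* and *Id3*, 0.60 between *Id1* and *Id2* and 0.61 between *Id2* and *Id3*. These are descriptions over clusters that share 3 libraries and their depths.

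**Figure D3:**
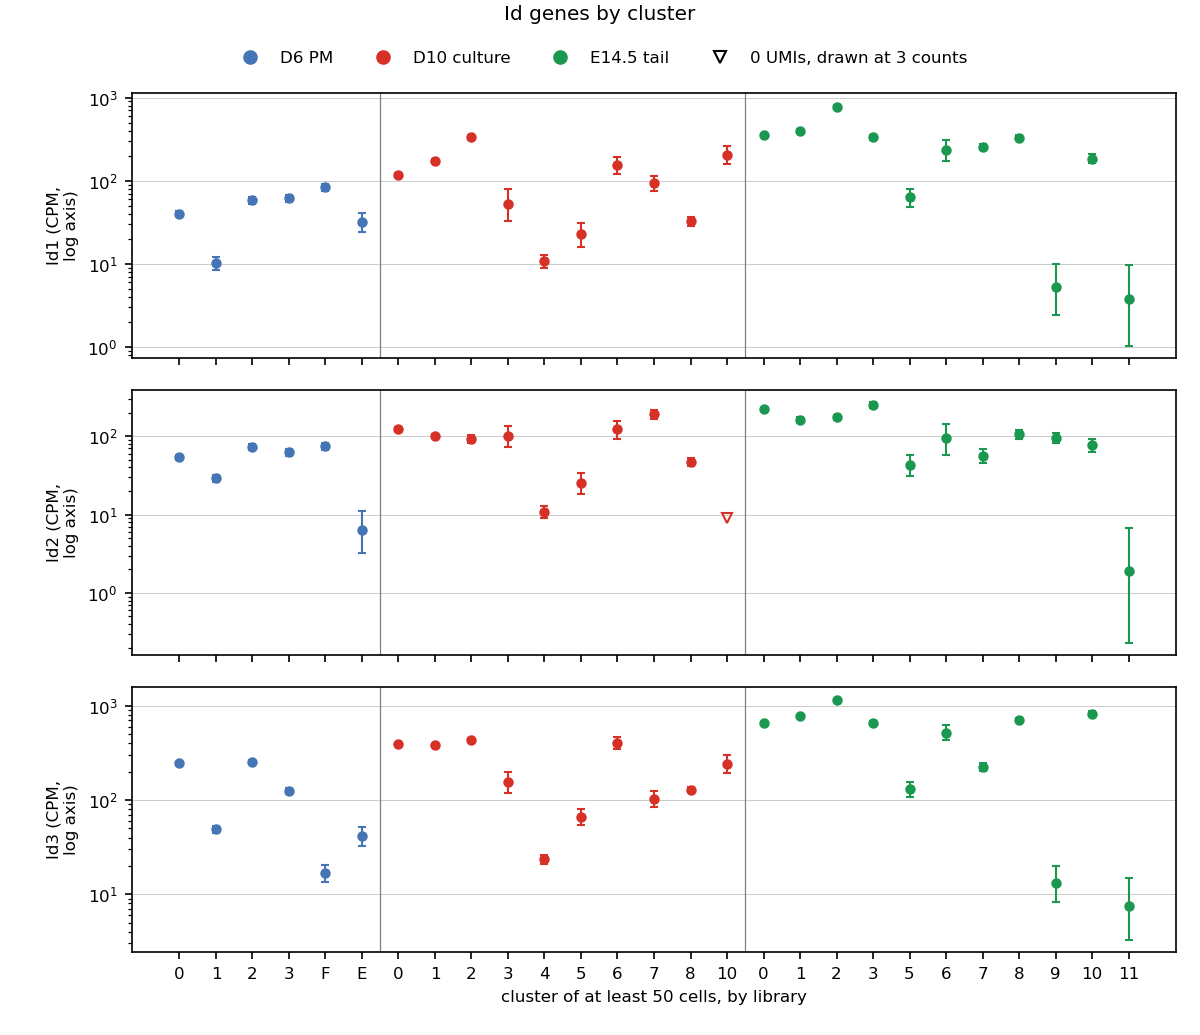
Levels of *Id1*, *Id2* and *Id3* in CPM (log axis) for each cluster of at least 50 cells of D6 PM, the D10 culture and the E14.5 tail, with points for levels, bars for exact Poisson 95% intervals and open triangles for clusters with 0 UMIs, drawn at 3 counts; F and E are the fibroblast-like and endothelial-like D6 clusters. *Id1* is at 10.7 CPM in culture cluster 4 and 339 CPM in cluster 2, and tail clusters 0, 1 and 2 lie above the same clusters of the culture for all 3 genes.

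Shares of cells with a UMI were compared after each cell had been thinned at random to 3000 UMIs, which left out 1157 culture, 100 tail and 1006 D6 cells below that depth. *Id1* was then seen in 24.7%, 31.7% and 51.8% of the cells of culture clusters 0, 1 and 2 (33.0%, 52.8% and 54.0% before thinning) and in 2.87% of cluster 4. Before thinning, cells had a median of 4918.5 UMIs in cluster 0, 7324 in cluster 1, 3696 in cluster 2 and 10369.5 in cluster 4. In the tail, the shares were 49.3%, 54.8% and 68.3% (76.6%, 88.2% and 92.9% before thinning) at median depths of 13463, 22536 and 13136 UMIs, against 1.60% in erythroid-like cluster 11 with a median of 8391.5. *Bmp4* was seen in 29.5% of the D6 somite-like cells (46.3% before thinning, median 7709 UMIs) and 0.763% of the D6 pluripotent-like cells (median 11208), in 26.2% of culture cluster 0 (37.5% before thinning) and 15.9% of tail cluster 0 (38.7% before thinning). *Grem1* was seen in 48.7% of the D6 fibroblast-like cells at this depth (55.6% before thinning, median 8627.5), with a highest count of 19 UMIs in 1 thinned cell, and in 0 of 168 endothelial-like cells (median 9118), which allows a share of cells with a UMI of up to 1.79% (3 counts).

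Within a cluster the Id genes varied more from cell to cell, relative to counting noise, than the receptor. At 3000 UMIs per cell the variance over the mean, which is 1 for pure counting noise, was 2.05 for *Id1*, 1.70 for *Id2*, 2.07 for *Id3*, 1.20 for *Bmp4* and 0.996 for *Bmpr1a* in culture cluster 0. The corresponding values in tail cluster 0 were 2.12, 1.98, 2.38, 1.65 and 1.11. *Grem1* in the D6 fibroblast-like cluster had 3.86, at a mean of 1.33 UMIs per thinned cell. For the same relative spread, variance over mean rises with the mean, so its order among genes depends in part on their levels. In culture cluster 0 the means were 0.390 for *Id1*, 0.379 for *Id2*, 1.18 for *Id3*, 0.336 for *Bmp4* and 0.226 for *Bmpr1a*. UMIs of both *Id1* and *Id3* were found in 15.9% of the thinned cells of culture cluster 0, and the product of the single shares was 13.7%. Tail cluster 0 had 38.9% (35.2 to 42.7) with a product of 33.5%. For *Id1* and *Bmp4* the values were 7.24% (6.28 to 8.31) with a product of 6.48% in culture cluster 0, and 7.37% (5.52 to 9.61) with 7.85% in tail cluster 0. Cells with both *Bmp4* and *Nog* or *Grem1* were too few to compare in culture cluster 0, with 2 of 2595 for *Nog* and 1 of 2595 for *Grem1*. They were also few in the tail. Tail cluster 0 had 5 of 678 for *Nog*, 0.737% (0.240 to 1.71) with a product of 0.517%. For *Grem1* it had 6 of 678, 0.885% (0.325 to 1.92) with 0.611%. Tail cluster 2 had 3 of 240 for *Nog*, 1.25% (0.259 to 3.61) with 1.67%. *Bmp4* with *Chrd* was not counted.

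A gene was counted as past 2-fold when its ratio was at least 2 in either direction, the interval excluded 1 and the groups had at least 20 UMIs together. In the culture, 3 of 9 members measured at this depth were higher in cluster 2 than in cluster 0 and none was lower, where 3.17% of all 14234 genes measured were higher and 5.61% lower. *Id1* was at 339 against 119 CPM, a ratio of 2.86 (2.65 to 3.07). *Bmp7* was at 52.3 against 15.3 CPM, a ratio of 3.43 (2.81 to 4.18), and *Nog* at 3.31 against 1.08 CPM, a ratio of 3.05 (1.30 to 6.82) from 11 and 18 UMIs. *Bmp4* was at 0.756 times (0.663 to 0.859). In the tail, 2 of 10 members were higher and none was lower, with 4.35% of 14622 genes higher and 9.01% lower. *Id1* was at 778 against 357 CPM, a ratio of 2.18 (2.07 to 2.29), and *Nog* at 66.8 against 12.8 CPM, a ratio of 5.20 (4.17 to 6.51). *Bmp7* reached 1.53 times (1.25 to 1.87) and *Id3* 1.73 times (1.66 to 1.80) there. The members had a median log2 ratio of 0.15 for the culture, beside 0.01 over all genes, and of 0.56 for the tail, beside -0.01.

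Between proliferating cluster 1 and cluster 0 no member was past 2-fold in either library, where 3.71% of genes were higher and 2.74% lower in the culture, and 4.99% higher and 5.69% lower in the tail. The members had a median log2 ratio of -0.05 for the culture, beside -0.08 over all genes, and of 0.08 for the tail, beside -0.15. The values nearest to it were *Grem1* at 1.86 times (0.736 to 4.80, from 12 and 10 UMIs), which did not differ beyond counting error, *Bmp7* at 1.75 times (1.47 to 2.08) and *Id1* at 1.47 times (1.38 to 1.57) in the culture, and *Nog* at 1.73 times (1.31 to 2.27) in the tail. *Chrd* was nearest on the lower side, at 0.648 times (0.447 to 0.921) in the tail. Counts of other pathway genes as higher or lower, here and below, follow the same 2-fold rule. By it none was higher in cluster 1 than in cluster 0, while 1 of 43 was lower in the culture and 6 of 47 in the tail. In the tail, 4 of 11 other known target genes were lower, with *Dlx5* at 0.0668 times (0.0180 to 0.175) and *Msx1* at 0.148 times (0.0895 to 0.233). In cluster 2 over cluster 0, 3 of 42 other pathway genes were higher and 6 lower in the culture, and 6 of 47 were higher and 10 lower in the tail. Over all genes, cluster 2 had 3.17% higher and 5.61% lower than cluster 0 in the culture, and 4.35% higher and 9.01% lower in the tail. *Id4*, another Id gene, had 116 CPM in culture cluster 2, which is 5.33 times (4.61 to 6.17) its 21.8 CPM in cluster 0, and *Tll1*, a protease that cleaves chordin, was at 0.152 times (0.0752 to 0.275). In tail cluster 2, *Msx1*, a homeobox target gene, was at 0.605 CPM (2 UMIs) against 31.1 CPM in cluster 0, a ratio of 0.0194 (0.00234 to 0.0708), and *Tll1* was at 0.117 times (0.0529 to 0.226).

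The same clusters were then compared between culture and tail. In the tendon-like cluster 0 the Id genes and all 3 antagonists were lower in the culture than in the tail, and *Bmp4* was the only member with a higher level. In this cluster 5 of the 10 members were past 2-fold lower and none higher, where 20.2% of 15909 genes were lower and 8.93% higher. *Grem1* was at 0.603 against 13.6 CPM, a ratio of 0.0442 (0.0207 to 0.0838), and *Nog* at 1.08 against 12.8 CPM, a ratio of 0.0845 (0.0486 to 0.139). *Bmp2* stood at 7.47 against 42.4 CPM, 0.176 times (0.143 to 0.216) the tail level, and *Id1* at 119 against 357 CPM, 0.332 times (0.314 to 0.351). *Chrd* was at 7.17 against 14.6 CPM, 0.491 times (0.382 to 0.629), a call that was lost at 0.536 times with the mean of single-cell CPM, at 0.507 without the deepest cells and at 0.583 after division by the median ratio. *Bmp7* at 0.525 times, *Id2* at 0.558, *Id3* at 0.592 and *Bmpr1a* at 0.640 were lower with intervals below 1 but not past 2-fold. *Bmp4* was at 108 against 65.7 CPM, a ratio of 1.65 (1.51 to 1.80). Clusters 0, 1 and 2 had a median log2 ratio of culture over tail of -0.25, -0.18 and -0.17 over all genes, and of -0.98, -0.86 and -1.30 over the members.

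Cluster 1 gave 5 members lower and none higher, with 14.8% of 13974 genes lower and 7.75% higher. These were *Nog* at 0.0379 times (0.0168 to 0.0750), *Grem1* at 0.0735, *Bmp2* at 0.198, *Id1* at 0.436 (0.408 to 0.465) and *Id3* at 0.489 (0.468 to 0.512). After division by the median ratio *Id3* was at 0.553 times and no longer past 2-fold, while *Bmp4*, at 1.83 times (1.58 to 2.14) as measured, was at 2.07. In cluster 2, 6 members were lower and none higher, with 14.1% of 12275 genes lower and 7.4% higher. *Nog* was at 3.31 against 66.8 CPM, a ratio of 0.0495 (0.0244 to 0.0903). *Grem1* followed at 0.0742 times, *Bmp2* at 0.132, *Chrd* at 0.364, *Id3* at 0.380 (0.357 to 0.404) and *Id1* at 0.435 (0.405 to 0.467). *Bmp7*, at 52.3 against 44.4 CPM, did not differ beyond counting error in this cluster, with a ratio of 1.18 (0.940 to 1.48).

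**Figure D4:**
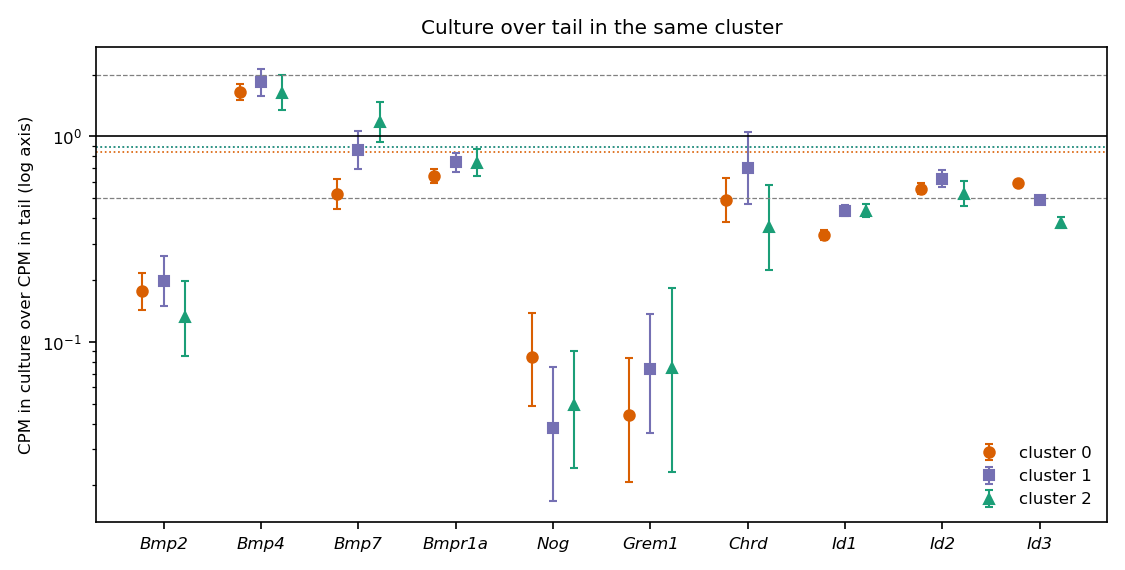
Ratio of CPM in the D10 culture over CPM in the E14.5 tail (log axis) for the 10 genes in clusters 0, 1 and 2, with exact conditional binomial 95% intervals; the solid line is equal level, dashed lines are 2-fold and dotted lines are the median ratio of all genes in the cluster of that color. *Bmp4* lies above 1 in all 3 clusters (1.63 to 1.83), and *Nog*, *Grem1* and *Bmp2* lie below 0.2 in all 3.

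The other pathway genes were mixed, with 7 of 47 higher and 15 lower in cluster 0, 7 of 45 and 12 in cluster 1, and 5 of 40 and 8 in cluster 2. Over all genes, the shares higher and lower were 8.93% and 20.2% for cluster 0, 7.75% and 14.8% for cluster 1, then 7.4% and 14.1% for cluster 2. The list of other known target genes had 7 of 11 lower and 1 higher in cluster 0, with a median log2 ratio of -1.96, beside -0.25 over all genes. In cluster 1 it had 5 of 10 lower and 1 higher, with a median of -1.10 beside -0.18, while cluster 2 had 3 of 8 lower and 1 higher, with -0.31 beside -0.17. In cluster 0 *Msx1* was at 0.121 CPM (2 UMIs) against 31.1 CPM (315 UMIs), a ratio of 0.00387 (0.000467 to 0.0141), and *Msx2* at 0.181 CPM (3 UMIs) against 14.8 CPM, a ratio of 0.0122 (0.00249 to 0.0364). *Bambi*, a decoy receptor induced by BMP, was at 13.6 against 57.1 CPM, *Id4* at 21.8 against 57.1 CPM, and *Dlx5*, a homeobox gene of bone, at 31.3 against 13.8 CPM, a ratio of 2.26 (1.87 to 2.75). *Smad7* was at 73.4 against 91.1 CPM, a ratio of 0.806 (0.739 to 0.878). None of the 6 Smads and other transducers was past 2-fold in cluster 0, and their median log2 ratio was -0.38. Of the other ligands measured, 1 of 7 was higher and 2 were lower in cluster 0. Cluster 1 had 1 higher and 3 lower of 6, while cluster 2 had 1 higher and 2 lower of 4, with median log2 ratios of -0.66, -0.87 and -1.09 for clusters 0, 1 and 2. The higher one was *Bmp5* in each cluster, at 3.16 times (2.75 to 3.65) in cluster 0, 4.10 in cluster 1 and 2.63 in cluster 2. *Gdf10* was lower in cluster 2, at 10.5 CPM (35 UMIs) against 132 CPM (438 UMIs), a ratio of 0.0795 (0.0546 to 0.112). Genes with large ratios outside cluster 0 were also *Dlx5*, with 300 UMIs (28.0 CPM) against 4 UMIs in cluster 1, *Msx2*, with 0 against 24 UMIs there, *Atoh8* at 3.01 against 26.3 CPM in cluster 2 and *Htra1* at 373 against 48.1 CPM there. Of the antagonists *Chrdl1*, which encodes a chordin-like protein and was picked here after its values were seen, was in cluster 0 at 50.6 against 5.33 CPM, a ratio of 9.49 (7.21 to 12.7). The 5 erythroid markers summed to 1467, 4464 and 2883 CPM in tail clusters 0, 1 and 2 and to 0.7 to 4.6 CPM in the same culture clusters, with all 5 detected in the tail. With haemoglobin, mitochondrial and ribosomal protein genes left out of the denominator, all of the members' calls in these 3 clusters were kept.

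The somite-like cluster of D6 PM, from cells under the BMP receptor inhibitor, was set beside tendon-like cluster 0 of the D10 culture. *Bmp4* stood at 117 CPM at D6 and 108 CPM at D10, a ratio of 0.924 (0.846 to 1.01). Of the 9 members measured, 1 was past 2-fold higher at D10 and 4 lower, where 12.9% of 15022 genes were higher and 14.6% lower. The median log2 ratio of these members was -0.11, beside -0.16 over all genes. *Id3* was at 124 CPM at D6 and 391 CPM at D10, a ratio of 3.16 (2.93 to 3.41). *Id1* went from 61.2 to 119 CPM, a ratio of 1.94 (1.73 to 2.17), and *Id2* from 62.5 to 125 CPM, a ratio of 1.99 (1.79 to 2.23), both just short of 2-fold. After division by the median ratio these were at 2.17 and 2.23, and with the mean of single-cell CPM at 2.02 and 2.02. The lower members were *Grem1* at 0.0939 times (0.0418 to 0.192), *Bmp7* at 0.192 (0.164 to 0.223), *Bmp2* at 0.311 (0.243 to 0.398) and *Chrd* at 0.354 (0.273 to 0.460). *Bmp7* was at 79.6 CPM at D6 and 15.3 CPM at D10.

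Of the other pathway genes, 18 of 43 were higher at D10 and 6 lower, beside 12.9% higher and 14.6% lower over all genes. Among the 13 other antagonists and modulators measured, 8 were higher and 1 lower, with a median log2 ratio of 1.999, beside -0.16 over all genes. *Chrdl1* had 1 UMI in the D6 somite-like cluster and 840 in D10 cluster 0 (50.6 CPM), *Fstl1* went from 331 to 1324 CPM and *Htra1*, a secreted protease, from 10.0 to 229 CPM. *Eng*, a co-receptor, was at 1.15 CPM at D6 and 38.3 CPM at D10, a ratio of 33.2 (16.0 to 83.0), and *Gdf10* was at 1.15 CPM (7 UMIs) at D6 and 28.8 CPM at D10.

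The pluripotent-like cells gave a comparison between the same kind of cluster at both days, with 1038 cells at D6 and 1088 at D10 and summed pluripotency markers of 7801 and 5199 CPM, all 6 detected in both. *Id1* was at 10.2 CPM at D6 and 10.7 CPM at D10, a ratio of 1.06 (0.817 to 1.36). Of the 9 members measured, 4 were past 2-fold lower at D10 and none higher, where 5.55% of 15438 genes were lower and 8.41% higher. The median log2 ratio of these members was -0.78, beside 0.05 over all genes. *Id2* was at 29.1 CPM at D6 and 10.8 CPM at D10, a ratio of 0.373 (0.302 to 0.458), and *Id3* at 48.7 and 23.4 CPM, a ratio of 0.482 (0.416 to 0.557). *Bmp2* was at 5.34 and 0.256 CPM, a ratio of 0.0479 (0.00964 to 0.146) from 65 and 3 UMIs, and *Grem1* at 1.40 and 0.256 CPM, from 17 and 3 UMIs. Without the deepest cells *Grem1* was at 0.751 times, with too few UMIs for a call. With the mean of single-cell CPM the calls of *Id3*, at 0.524 times, and *Grem1*, at 0.441 times, were lost. Of the other pathway genes, 2 of 34 measured were higher at D10 and 4 lower, beside 8.41% higher and 5.55% lower over all genes. *Id4* was lower, at 20.1 and 5.29 CPM, a ratio of 0.263 (0.196 to 0.349). *Bmp5* was higher, at 0.411 and 2.47 CPM, a ratio of 6.02 (2.31 to 19.9) from 5 and 29 UMIs.

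**Figure D5:**
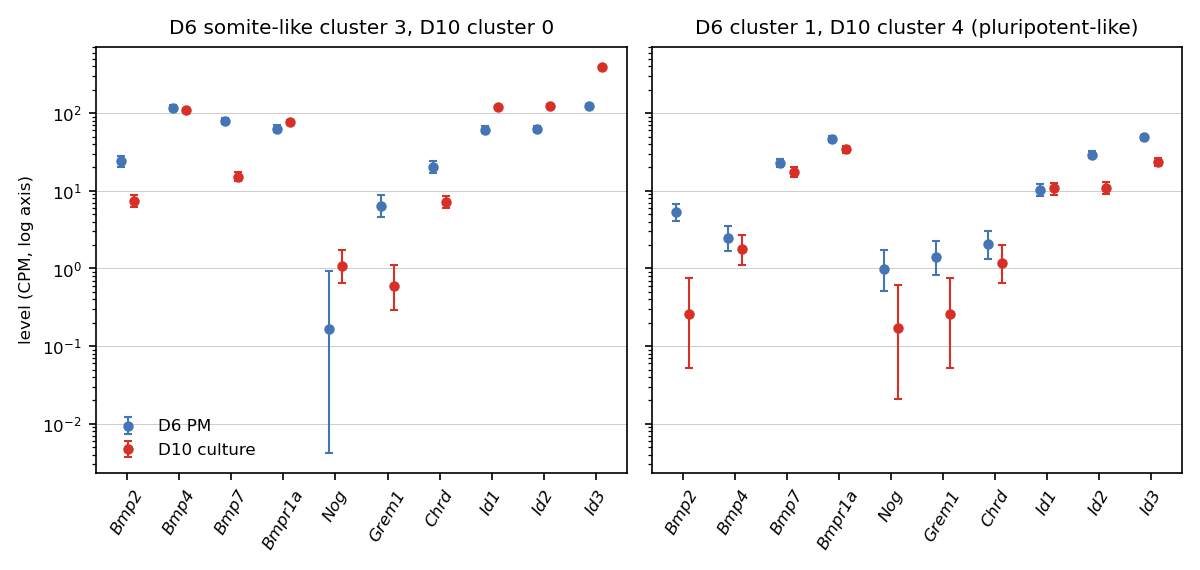
Levels in CPM (log axis) of the 10 genes at D6 and D10 with exact Poisson 95% intervals, for the somite-like D6 cluster 3 beside D10 cluster 0 and for the pluripotent-like clusters of both days. *Id3* is at 124 and 391 CPM in the first pair and at 48.7 and 23.4 CPM in the second, and *Id1* is at 10.2 and 10.7 CPM in the pluripotent-like cells.

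Within D6 PM, 8 of 9 members were past 2-fold higher in the somite-like than in the pluripotent-like cluster and none lower, where 22.6% of 15096 genes were higher and 17.5% lower. The median log2 ratio of these members was 2.17, beside 0.11 over all genes. The largest ratio was that of *Bmp4*, 47.6 (33.0 to 71.0), and *Bmpr1a* at 1.37 times (1.20 to 1.57) was the exception. *Id2*, at 2.15 times, was at 1.92 with the mean of single-cell CPM and 1.99 after division by the median ratio. *Bmp5* was 203 times (86.5 to 628) higher and *Sostdc1*, which encodes a BMP and WNT antagonist, was at 25.5 CPM against 0.246 CPM (3 UMIs). A further 3 comparisons were added after the levels had been seen. Cluster 0 of D6 PM over the somite-like cluster had 2 members higher and 3 lower, with 12.6% and 13.5% of 15657 genes. The median log2 ratio was -0.16 for the members, beside -0.12 over all genes. The higher members were *Nog* at 34.8 times (6.11 to 1387, from 104 and 1 UMIs) and *Bmp2* at 6.48 times (5.49 to 7.71). *Bmp4* was at 0.102 times (0.0872 to 0.119). The fibroblast-like over the somite-like cluster had 1 higher, *Grem1* at 69.5 times (50.7 to 97.9), and 4 lower, among them *Id3* at 0.136 times (0.109 to 0.167), with 17.6% and 25.3% of 14064 genes and medians of -0.01 and -0.30. Tail cluster 3, with its white blood cell genes, over tail cluster 0 had none higher and 2 lower, *Bmp4* and *Chrd*, with 10.6% of 14768 genes lower and 8.63% higher and a median of -0.08 for both the members and all genes. Over all cells, 2 of 10 members were higher in the D10 culture than in D6 PM and 3 lower, with 10.9% and 13.2% of 20836 genes and medians of -0.14 and -0.04. *Id1* was at 106 against 42.8 CPM, *Bmp4* at 58.4 against 20.9 CPM, *Bmp2* at 7.21 against 90.5 CPM, *Grem1* at 2.60 against 52.1 CPM and *Chrd* at 4.77 against 19.98 CPM. The share of cells in each cluster differs between these libraries, and its part in these values was not tested.

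Over the 27 clusters of at least 50 cells and 8458 genes with at least 50 CPM in any of them, the genes most like *Bmp4* by Pearson r of log2(CPM + 10) were *Bmp5* (0.91), *Foxc2* (0.90), *Foxd1* (0.89), *Foxc1* (0.88) and *Crispld1* (0.88). Those most like *Id1* were *Ccdc8* (0.93), *Ccdc102a* (0.89), *Id3* (0.88), *Nfia* (0.88) and *Ctdspl* (0.87), and *Id3* was closest to *Mpdz* (0.90), *Id1* (0.88), *Ttc23* (0.87), *Ccdc102a* (0.85) and *Ccdc8* (0.85). *Id2* had lower values throughout, with *Atn1* (0.86), *Rnd3* (0.84), *Cdk14* (0.83), *Pdzrn3* (0.81) and *Serf1* (0.80). *Grem1* was closest to *Medag* (0.96), *Ifi207* (0.95), *Xdh* (0.94), *Col5a3* (0.94) and *Mmp13* (0.92), and its own levels were high in the D6 fibroblast-like cluster and culture cluster 3 alone.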

How the data were processed

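Single-cell RNA was measured in 1 library of D6 PM, 1 of the D10 culture and 1 of E14.5 tail. The authors deposited unnormalized UMI counts for each gene in each cell, made from 10x 3′ libraries with cellranger and without multi-mapping reads. The submitters' processing notes name Seurat 3.0. The authors removed cells above 7.5% mitochondrial transcripts and the lowest and highest 2% of cells by transcripts, the latter as likely doublets, and no doublet caller was run here. Total counts were 53403944 UMIs in the culture, 31343741 in the tail and 51858825 in D6 PM. The genome build of these counts is not given in the sources used here, so coordinates belong to the RefSeq promoters only. Leaving out multi-mapping reads can lower genes with near-identical copies.

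The members and lists were chosen with earlier results of these data known. Cluster codes of culture and tail were matched to the study's cluster numbers by the cell types its text names, not by its cluster sizes, which go with other numbers for clusters 2, 3, 4 and 8 in its list, and those of D6 PM were numbered by size. Of 57 other pathway genes, 56 are listed for culture and tail and 52 for D6 PM, and comparisons with D6 PM used only shared genes. Named other pathway genes were the 5 highest of each list and the 3 with the largest ratio in each comparison, with *Chrdl1* in culture against tail added after its values were seen. Not every gene that this rule names is reported here. UMIs were summed per cluster and library with Python 3.11.15, NumPy 2.4.6, SciPy 1.17.1 and pandas 2.3.3, and figures were drawn with Matplotlib 3.10.9. Thinning used random seed 1. A group without UMIs was set to a floor of 3 counts over the group. The fold rule was also run on simulated data, and the outcome is not given here. Alternatives changed the denominator, used the mean of single-cell CPM, left out cells under 1000 genes or the deepest 10% of each cluster, divided ratios by the median ratio, dropped the minimum of 20 UMIs, used a fold of 1.5 or thinned to 1500 or 5000 UMIs.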

Additional observations from a re-analysis of the deposited data

How the results depend on the processing

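With 1 library per group, replicates could not be left out, and no paired analysis was possible because the groups have 1 sample each and the results come from no test. Of the 140 ratios of members 55 were called, and a change of direction was looked for in these only. Across the 5 alternatives that recompute ratios, none of the 55 changed direction, while 9 calls were lost and 10 gained. These changed calls are given beside the results where they touch a named value. Exceptions are *Id3* in D6 cluster 0 over the somite-like cluster and *Grem1* in tail cluster 3 over cluster 0, each gained. With no minimum of UMIs *Nog* was also past 2-fold in D10 cluster 0 over the D6 somite-like cluster, at 6.59 times (18 and 1 UMIs), and between the pluripotent-like clusters, at 0.173 times (2 and 12 UMIs), which made 6 members in place of 5 and 5 in place of 4. At a fold of 1.5 in place of 2, tail cluster 2 over cluster 0 had 4 members past it (2 at 2-fold), all higher. Culture cluster 1 over cluster 0 had 1 (0), which was higher. Tail cluster 1 over cluster 0 had 2 (0), with 1 higher and 1 lower. Cluster 0 of culture over tail had 10 (5), with 1 higher and 9 lower. D6 cluster 0 over the somite-like cluster had 8 (5), with 4 higher and 4 lower. Tail cluster 3 over cluster 0 had 4 (2), with 1 higher and 3 lower. Shares of all genes past 1.5-fold are not given here, so these counts cannot be set beside a background. With the mean of single-cell CPM, 2 members in place of 4 were past 2-fold between the pluripotent-like clusters. Of 1080 levels recomputed under the alternatives 175 moved. A level on its own has no direction, so a reversal could not be looked for in levels. The cluster with the highest level of a member was kept for 27 to 29 of 30 member and library pairs, with *Id2*, *Id3* and *Bmpr1a* in D6 PM and *Id3* in the culture as the exceptions. At another thinning depth, 33 of 63 shares of cells with both genes of a pair moved. Thinning to another depth moves shares of cells by construction. Depth limits *Nog* and *Grem1* in the culture clusters 0, 1 and 2, with 5 to 18 UMIs each.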
